A study of Mus musculus with 12 samples.

Results

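Fat cells read the sympathetic nervous system through adrenoceptors and read cardiac and vascular hormones through natriuretic peptide receptors. Beta-adrenoceptors couple to Gs, which raises cyclic AMP and starts lipolysis, while alpha-2 adrenoceptors couple to Gi and lower cyclic AMP. Natriuretic peptide receptors A and B are guanylyl cyclases that make cyclic GMP when a peptide binds, and receptor C removes peptide from the surroundings without making cyclic GMP. The 6 genes described here are *Adrb1* and *Adrb3* (beta-1 and beta-3 adrenoceptors), *Adra2a* (alpha-2A adrenoceptor), *Npr1* and *Npr2* (receptors A and B) and *Npr3* (receptor C). They were chosen by name out of 22947 genes measured, and 5 of the 6 were among the 12775 genes that passed the filter on low values. *Adra2a* did not pass.

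The RNA came from epididymal white adipose tissue (eWAT) of male C57BL/6J mice that were 21 weeks old after 16 weeks of diet and were housed singly. All mice were fasted before they were anesthetized at the end of the experiment. Each of the 4 groups was represented by 3 mice, which gave 12 libraries, and the authors name no genetic modification of these mice. The ND group ate a normal diet and the HFD group a high-fat diet. In the CLE group an ethanol extract of chrysanthemum leaf, which is a mixture, made up 1.5% (w/w) of the high-fat diet, and in the LU group the flavonoid luteolin made up 0.003% (w/w) of it, so the amounts differ. The 3 mice were taken from a larger group as representative, by a rule not given in the sources used here. Whole tissue was extracted, so a lower value can come from fewer cells of a type or from less RNA per cell, which cannot be told apart in bulk tissue.

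Levels are given as FPKM, a read density per length of transcript scaled to the size of the library, summed over the transcripts of a gene. Because FPKM are per length, levels can be compared between genes, but only roughly. The sum for a gene depends on how reads were divided among transcripts of different lengths, which is an estimate. Groups were compared with limma on log2(FPKM + 1), a scale on which the change of a gene with low FPKM is understated. Calls needed both an adjusted p (Benjamini-Hochberg, over all 12775 genes) under 0.05 and a fold change over 1.5, and "rose" and "fell" are used only of called genes. The deposited FPKM carry no depth, so counting error is unknown. Within groups, Pearson's r across genes between libraries was 0.978 to 0.991. The letter R, of unexplained meaning, stands in the titles of 4 libraries, those of ND mice 3 and 4, of CLE mouse 4 and of LU mouse 2, and in no HFD title. Without these libraries ND mouse 2 is the only ND mouse left, so values against ND there rest on that mouse alone. Fitted as a covariate, the letter had log2 differences from -0.24 to 0.086 for the 5 tested receptor genes. The limma p was 0.45 to 0.86 unadjusted and 0.9998 adjusted. With 4 such libraries and none in the HFD group, this fit cannot show that the letter had no effect.

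**Figure D1:**
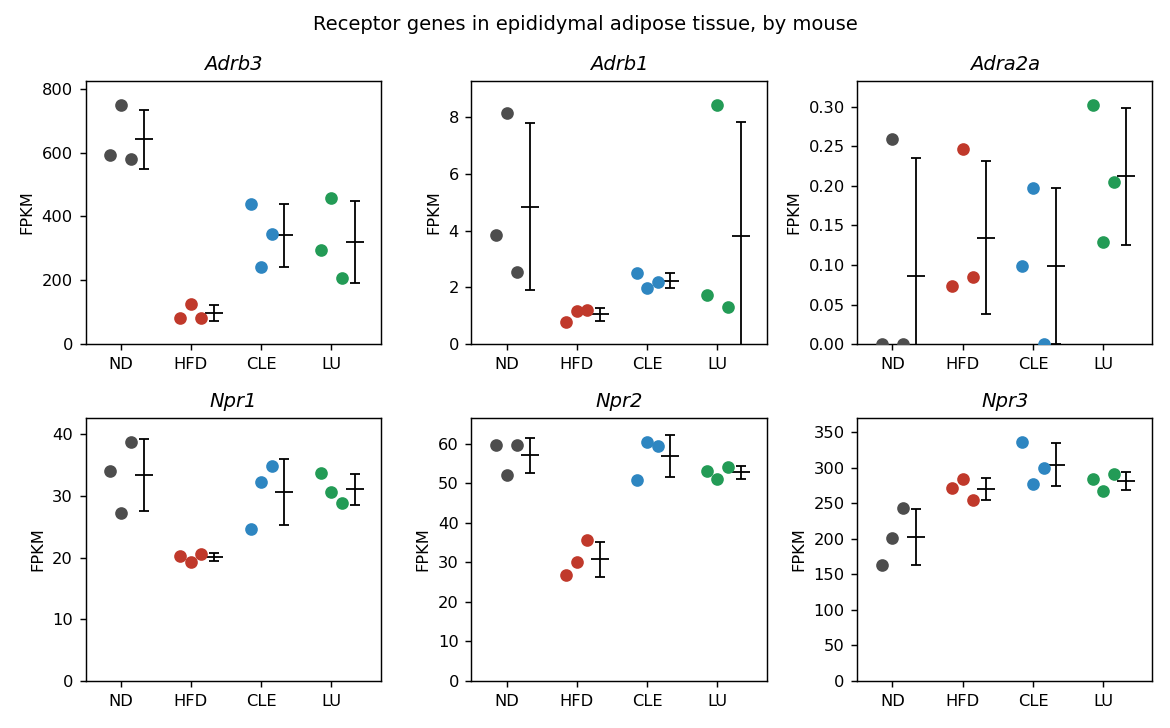
FPKM of the 6 receptor genes (vertical axes, each from 0 on its own scale) in the ND, HFD, CLE and LU groups. Each point is 1 mouse, and the bar beside the points is the mean ± SD (n = 3), drawn from 0 upward where the SD reaches below 0. For *Adrb3*, *Adrb1*, *Npr1* and *Npr2* the 3 HFD mice lie below every other mouse, and for *Npr3* the 3 ND mice lie below every other mouse.

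In the HFD group 4 of the 5 tested receptor genes fell and 0 rose compared with the ND group, against 25.6% of all genes tested being called, 10.8% lower and 14.9% higher. All 5 had groups that did not overlap, as did 59.5% of all genes tested. With CLE, 2 of the 5 rose and 0 fell compared with HFD, where 16.5% of all genes were called, 6.33% higher and 10.1% lower, and 4 of the 5 had groups that did not overlap, against 50.6%. With LU, 3 of the 5 rose and 0 fell, where 12.4% of all genes were called, 4.81% higher and 7.64% lower, and 4 of the 5 had groups that did not overlap, against 47.6%. Relative to ND, 1 of the 5 was called higher with CLE, where 2.91% of all genes were called (2.06% higher, 0.853% lower), and 1 was called lower with LU, where 6.59% were (4.97% higher, 1.62% lower). In these last comparisons the groups did not overlap for 3 and 2 of the 5, against 24.7% and 30.1% of all genes.

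Between CLE and LU, 0 of the 5 receptor genes were called and 0 had groups that did not overlap, against 0.00783% and 9.03% of all genes tested. None of the 5 had an unadjusted limma p under 0.05. Of the 12775 genes tested 672 did, a share close to that threshold itself. The 1 gene called, lower with CLE, was *Xcl1*, named here after its value was seen. All comparisons with HFD share the 3 HFD mice, so their opposite signs are not independent of each other.

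**Figure D2:**
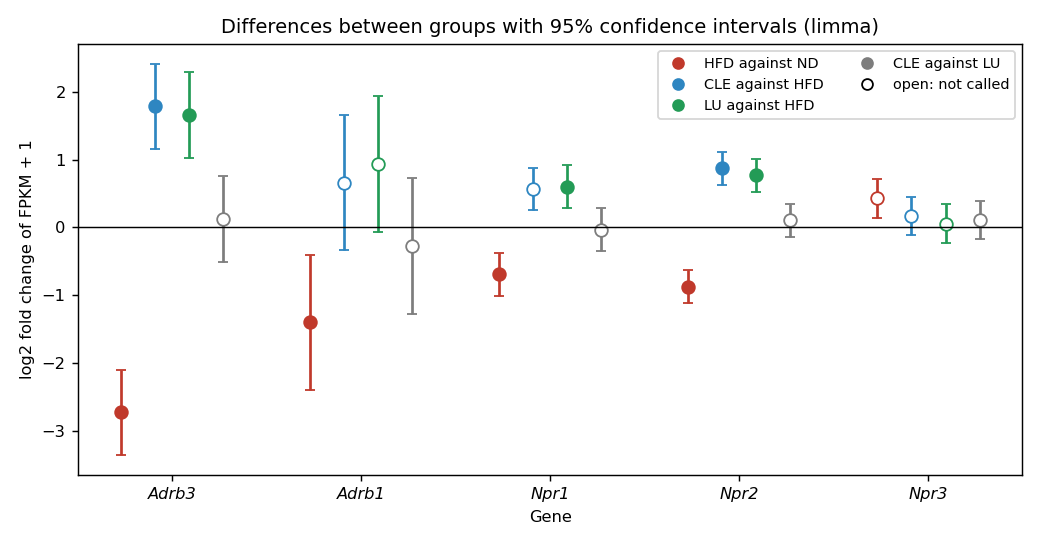
Log2 fold changes of FPKM + 1 for the 5 tested receptor genes (vertical axis) in 4 comparisons, with 95% confidence intervals from limma. Filled points passed the adjusted p and the fold threshold, open points did not. The intervals of CLE against LU all include 0, from -1.27 to 0.72 for *Adrb1* and from -0.14 to 0.35 for *Npr2*.

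*Adrb3* fell the most of the 5 tested genes with the HFD and rose with both supplements, without reaching the ND level. Its product is the main beta-adrenoceptor of rodent white and brown fat cells. *Adrb3* had 593, 749 and 581 FPKM in ND mice 2, 3 and 4, and 82.4, 127 and 82.3 FPKM in HFD mice 12, 15 and 18. In the CLE group it had 438, 241 and 344 FPKM in mice 2, 4 and 11, and in the LU group 295, 459 and 208 FPKM in mice 2, 3 and 8. Each CLE and LU mouse lay above each HFD mouse and below each ND mouse, and the CLE and LU mice overlapped. The mean of the HFD group, 97.3 ± 25.8 FPKM (SD, n = 3), was 15.2% of the ND mean, 641 ± 93.6 FPKM (SD, n = 3). On the log2 scale HFD differed from ND by -2.73 (adjusted p = 1.8e-05), CLE from HFD by 1.79 (adjusted p = 0.00076) and LU from HFD by 1.67 (adjusted p = 0.0019), each with a standard error of 0.29. These 3 calls held in each of the 31 alternative settings tried. Among the 8 libraries without the letter R, with ND mouse 2 the only ND library, the values were -2.63, 2.02 and 1.69.

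Against the ND group directly, *Adrb3* was lower by a log2 fold change of -0.94 with CLE, which was not called (adjusted p = 0.079), and of -1.06 with LU, which was (adjusted p = 0.033). The LU call was lost when any one of ND mice 2, 3 and 4 or LU mice 2 and 8 was left out. The adjusted p was then between 0.053 and 0.13. Among the libraries without the letter R, where ND mouse 2 was the only ND library, the log2 fold change was -0.94. The difference between CLE and LU in *Adrb3* was 0.12 (95% confidence interval -0.51 to 0.76, adjusted p = 0.97), an interval wide enough to hold a fold change over 1.5 in one direction.

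*Adrb3* lies on chromosome 8 of GRCm38 from 27225776 to 27250616 on the minus strand. Of the summed FPKM of this gene over the 12 libraries, 40.3% was on transcript ENSMUST00000117565, 27.4% on ENSMUST00000081438 and 15.4% on ENSMUST00000121838, and the remaining 16.9% on transcripts that the authors assembled from the reads. The 3 annotated transcripts are all protein coding and overlap one another, so how the reads were divided among them is an estimate. Each of the 4 parts was lower in every HFD mouse than in any other mouse of the ND, CLE and LU groups, and the HFD mean was 12.5% to 17.0% of the ND mean. The share of ENSMUST00000121838 varied the most, from 9.32% to 22.3% across libraries. Another 9 transcripts carry the name *Adrb3* in the deposited table but belong to the neighbouring gene *Got1l1* by their identifiers, and their 2.12 to 3.53 FPKM per library were left out.

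**Figure D3:**
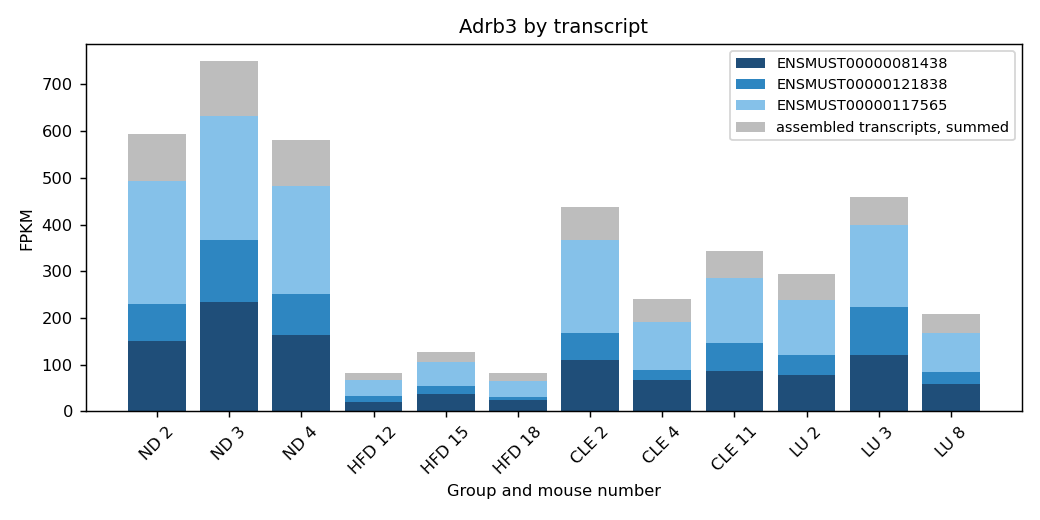
FPKM of *Adrb3* in each of the 12 libraries (vertical axis), with each bar divided into the 3 annotated transcripts and the sum of the assembled ones. The 3 HFD bars end between 82.3 and 127 FPKM and the 3 ND bars between 581 and 749 FPKM, and each of the 4 parts is smaller in the HFD bars.

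*Adrb1*, whose product is better known from the heart and also acts in fat cells, was measured at a much lower level than *Adrb3*. It had 3.84, 8.14 and 2.53 FPKM in the ND mice, 0.775, 1.16 and 1.21 FPKM in the HFD mice, 2.51, 1.99 and 2.19 FPKM in the CLE mice, and 1.72, 8.42 and 1.32 FPKM in the LU mice, in the order of mice given for *Adrb3*. ND mouse 3 and LU mouse 3 stood far above the other mice of their groups, and every HFD mouse lay below every mouse of the other groups. *Adrb3* was also highest within its group in these same mice. Within a library, *Adrb3* was 54.6 to 230 times *Adrb1*.

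In the HFD group *Adrb1* fell by 1.40 on the log2 scale, with a standard error of 0.46 and an adjusted p = 0.024, but this call rested on single libraries. Without ND mouse 3 the log2 fold change was -1.02 (adjusted p = 0.093), and without HFD mouse 12 it was -1.30 (adjusted p = 0.071). When libraries with the letter R were left out, with ND mouse 2 the only ND library, it came to -1.24. With no filter on low values the adjusted p was 0.055. Against HFD, the log2 fold change was 0.66 with CLE (adjusted p = 0.29) and 0.94 with LU (adjusted p = 0.15), neither of which was called, although the groups did not overlap. When only the CLE and HFD libraries entered the fit, the CLE difference was called (adjusted p = 0.0048). The LU value was 0.30 without LU mouse 3, and without this mouse *Adrb1* was also called lower with LU than with ND (-1.10, adjusted p = 0.043). *Adrb1* lies on chromosome 19 from 56722199 to 56733113 on the plus strand.

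*Adra2a*, whose product restrains lipolysis, was close to the bottom of the scale. The highest value of its summed transcript was 0.302 FPKM, in LU mouse 2, and it was below 0.01 FPKM in 3 libraries (ND mice 2 and 4 and CLE mouse 11). The other libraries had from 0.0736 FPKM upward, and in this transcript all groups overlapped. An assembled transcript that overlaps it under the same name was not summed. That transcript held 0.280 FPKM in ND mouse 2, 0.367 FPKM in ND mouse 4 and 0.156 FPKM in CLE mouse 11. It had 0.158 FPKM in ND mouse 3 and 0.0883 FPKM in HFD mouse 18. With both transcripts added together, every ND mouse would lie above every HFD and CLE mouse. The overlap of these groups therefore depends on leaving the assembled transcript out, and all of these values are low. How the reads were divided between these transcripts is an estimate, so a value near 0 does not show that the gene had no reads. *Adra2a* was not tested, and no fold change is given.

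Of the alpha-1 adrenoceptor genes, whose products couple to Gq and calcium, 2 rose in the HFD group, *Adra1d* by a log2 fold change of 1.00 (adjusted p = 0.019) and *Adra1a* by 0.65 (adjusted p = 0.00097). *Adra1b* had a difference of 0.10 (adjusted p = 0.55). None of these 3 was called with CLE or LU against HFD. *Adra2b* and *Adra2c* did not exceed 0.273 and 0.296 FPKM and were not tested.

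Of the natriuretic peptide receptors, *Npr1* and *Npr2* fell with the HFD, *Npr2* rose with both supplements, and *Npr3* was not called in these 3 comparisons. *Npr1* had 34.0, 27.2 and 38.8 FPKM in the ND mice, 20.2, 19.4 and 20.6 FPKM in the HFD mice, 24.6, 32.3 and 34.9 FPKM in the CLE mice and 33.8, 30.6 and 28.8 FPKM in the LU mice. The 3 HFD mice were close together and below every other mouse. For *Npr1* the log2 difference between HFD and ND was -0.69 (adjusted p = 0.0020). CLE differed from HFD by 0.57 (adjusted p = 0.0103), just under the fold threshold of 0.585 on the log2 scale, and LU by 0.60 (adjusted p = 0.0102), just over it, each with a standard error of 0.14. Without ND mouse 4, the HFD difference was -0.58 and was not called. The LU call was lost without HFD mouse 15 (0.58) or LU mouse 2 (0.54) and with the letter R as a covariate (0.57). It was also lost among libraries without the letter (0.54) and with median ratio scaling (0.569). The CLE difference was called without CLE mouse 2 (0.71) or HFD mouse 18 (0.59). It was also called with a pseudocount of 0.1 (0.591), at equal totals (0.586) and with quantile normalization (0.624). In *Npr1*, CLE and LU differed by -0.03 (95% confidence interval -0.35 to 0.28).

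*Npr2*, the receptor of C-type natriuretic peptide, had 59.7, 52.0 and 59.7 FPKM in the ND mice, 26.7, 30.1 and 35.5 FPKM in the HFD mice, 50.8, 60.6 and 59.5 FPKM in the CLE mice and 53.2, 51.0 and 54.2 FPKM in the LU mice. Again the HFD mice lay below all others, while the ND, CLE and LU mice overlapped. *Npr2* fell by 0.88 with the HFD (adjusted p = 6.7e-05) and rose by 0.87 with CLE (adjusted p = 0.00017) and by 0.77 with LU (adjusted p = 0.00068) on the log2 scale, each with a standard error of 0.11. Against ND, *Npr2* differed by -0.01 with CLE (95% confidence interval -0.25 to 0.24) and by -0.11 with LU (95% confidence interval -0.35 to 0.14). Neither interval reaches a fold change of 1.5 on this scale.

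The windows before the starts of *Npr1* and *Npr2* are shown because these genes moved together over the libraries (Pearson's r of 0.91 over the 12 libraries, which share the group differences). Each holds the 250 bases upstream of the RefSeq start in GRCm38.p6, read 5′ to 3′ on the strand of the gene, at chr3:90465867-90466116 on the minus strand for *Npr1* and at chr4:43631685-43631934 on the plus strand for *Npr2*. The main deposited transcript of each gene starts at the next base. Capitals mark matches to the motifs described in the next paragraph.
Npr1: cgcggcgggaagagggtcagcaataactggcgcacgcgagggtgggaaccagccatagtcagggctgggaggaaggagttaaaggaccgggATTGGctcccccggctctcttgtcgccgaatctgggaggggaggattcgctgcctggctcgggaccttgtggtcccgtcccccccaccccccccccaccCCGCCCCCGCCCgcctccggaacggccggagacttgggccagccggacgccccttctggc
Npr2: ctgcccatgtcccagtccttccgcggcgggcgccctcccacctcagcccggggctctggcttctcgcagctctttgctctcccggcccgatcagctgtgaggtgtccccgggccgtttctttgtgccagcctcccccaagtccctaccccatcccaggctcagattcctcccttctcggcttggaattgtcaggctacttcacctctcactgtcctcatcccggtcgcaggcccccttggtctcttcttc

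Both strands were searched for 5 motifs, of which none overlapped another here. The *Npr1* window held 2 matches to the GC box GGGCGG, at 60 to 55 and 54 to 49 bases before the start, and 1 to the CCAAT box, at 159 to 155 bases, all on the opposite strand, and the *Npr2* window held no match to any of the 5. Of 32851 such windows in the RefSeq table, 32.7% held GGGCGG and 33.8% held CCAAT. The TATA box TATAAA was in 12.4% of windows, the nuclear receptor motif AGGTCA in 14% and the cyclic AMP response element TGACGTCA in 1.55%, and none of these 3 was in either window. The windows were rich in G and C, with 70.4% for *Npr1* and 64.4% for *Npr2* against a median of 52.4% over all windows. *Npr1* lies at 90450591 to 90465866 on chromosome 3 and *Npr2* at 43631935 to 43651244 on chromosome 4.

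*Npr3*, the clearance receptor, was the most abundant of the natriuretic peptide receptor genes and the only tested member higher in the HFD mice than in the ND mice. It had 163, 201 and 243 FPKM in the ND mice, 271, 285 and 255 FPKM in the HFD mice, 337, 277 and 300.4 FPKM in the CLE mice and 284, 267 and 292 FPKM in the LU mice. Every ND mouse lay below every mouse on the high-fat diet, with or without a supplement, and the other 3 groups overlapped. The difference of HFD against ND was 0.43 on the log2 scale (adjusted p = 0.0165), under the fold threshold and so not called. It was 0.72 among the libraries without the letter R, where ND mouse 2, the lowest in *Npr3*, was the only ND library. CLE and LU differed from HFD by 0.17 (95% confidence interval -0.11 to 0.45) and 0.06 (95% confidence interval -0.23 to 0.34). Against ND, *Npr3* rose with CLE by 0.60 (adjusted p = 0.027), a call that was lost without any one of ND mice 2 and 3 or CLE mice 2 and 11, with adjusted p from 0.060 to 0.073. Among the libraries without the letter R, again with ND mouse 2 as the only ND library, the CLE value was 0.96. With LU the value was 0.49 (adjusted p = 0.031) and was not called, but it was called without ND mouse 4 (0.63, adjusted p = 0.0098). It was also called relative to adipocyte markers (0.72, adjusted p = 0.0041), where 1535 of all genes tested were called higher and 87 lower. With the letter R libraries left out it was 0.77, against ND mouse 2 alone. *Npr3* lies on chromosome 15 from 11839896 to 11907287 on the minus strand.

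The balance of *Npr3* to *Npr1* differed most between ND and HFD mice. *Npr3* was 4.80, 7.40 and 6.26 times *Npr1* in the ND mice, 13.4, 14.7 and 12.3 times in the HFD mice, 13.7, 8.58 and 8.60 times in the CLE mice and 8.40, 8.74 and 10.1 times in the LU mice. CLE mouse 2 was the only supplemented mouse within the HFD range, and the 3 LU mice lay between the ND and HFD ranges. On the log2 scale the ratio of *Npr1* to *Npr3* was -2.60 ± 0.31 (SD, n = 3) with ND and -3.75 ± 0.13 (SD, n = 3) with HFD, a difference of -1.15 (two-sided p = 0.1 by an exact permutation test, which cannot go lower with 3 mice a group, and 0.15 adjusted over 6 comparisons). The difference from HFD was 0.57 with LU (exact permutation p = 0.1, adjusted 0.15) and 0.42 with CLE (exact permutation p = 0.3, adjusted 0.36), and CLE and LU differed by -0.15 (exact permutation p = 0.7, adjusted 0.70). As a share of the FPKM of all 3 receptors, *Npr3* held 63.6% to 71.8% in the ND mice, 81.9% to 85.2% in the HFD mice, 74.9% to 81.7% in the CLE mice and 76.6% to 77.9% in the LU mice.

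**Figure D4:**
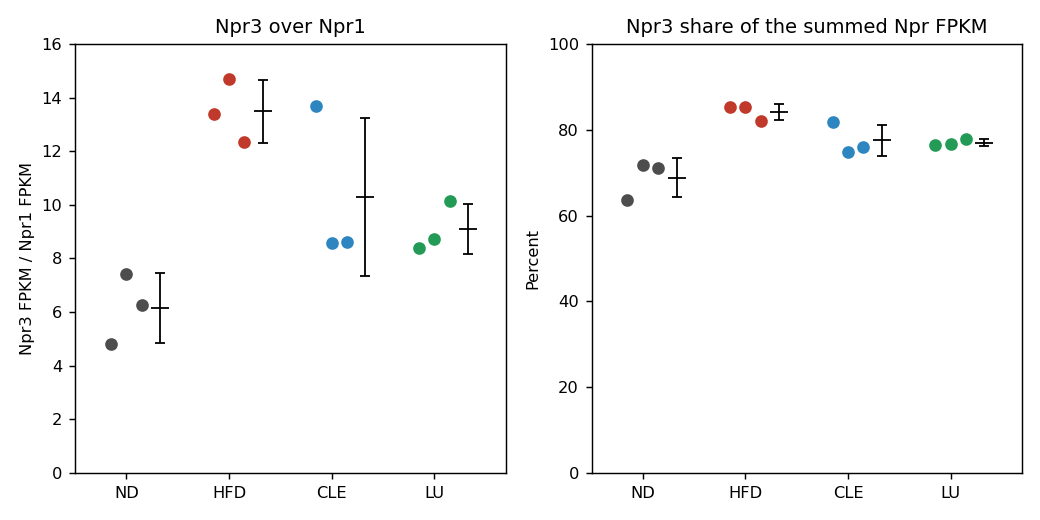
Balance of the natriuretic peptide receptor genes in the 4 groups, with each point 1 mouse and the bar the mean ± SD (n = 3). The left panel gives *Npr3* FPKM over *Npr1* FPKM, and the right panel gives the percent of the FPKM of *Npr1*, *Npr2* and *Npr3* that is *Npr3*. The ND mice are at 4.80 to 7.40 times and the HFD mice at 12.3 to 14.7 times.

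Markers of the cell types in the tissue moved between the same groups. The summed level of 10 adipocyte markers was 35215 to 36468 FPKM in the ND mice, 19417 to 21731 FPKM in the HFD mice, 27758 to 31071 FPKM with CLE and 26376 to 31851 FPKM with LU, with 5 genes called lower and 1 higher in the HFD group. All 8 macrophage markers rose in the HFD group, with sums of 301 to 464 FPKM in the ND mice and 2788 to 3259 FPKM in the HFD mice, and all 8 fell with CLE (550 to 992 FPKM) and with LU (910 to 1138 FPKM). The HFD mice had the lowest adipocyte and the highest macrophage sums, without overlap with the other groups. The 6 endothelial markers summed to 310 to 492 FPKM with ND, 216 to 352 FPKM with HFD, 376 to 537 FPKM with CLE and 419 to 480 FPKM with LU. The 6 mural and smooth muscle markers summed to 202 to 357 FPKM with ND, 188 to 212 FPKM with HFD, 282 to 331 FPKM with CLE and 303 to 360 FPKM with LU. For both of these lists the HFD mice overlapped the ND mice and lay below all CLE and LU mice. The 5 mesothelial markers summed to 9.43 to 53.3 FPKM with ND and 2.29 to 7.01 FPKM with HFD, and 4 of them were called lower. The 6 progenitor and fibroblast markers summed to 601 to 938 FPKM over all libraries. Liver markers reached at most 34.6 FPKM in sum, lymphocyte markers 6.03 FPKM, epididymis markers 5.58 FPKM and nerve markers 4.96 FPKM, with *Lcn5* of the epididymis at 0 throughout and *Th* and *Dbh* of nerve at most 0.048 and 0.033 FPKM. None of the adipocyte, macrophage, endothelial or mural markers was at 0 throughout.

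Taken relative to the mean log2 level of the adipocyte markers in the same library, the HFD difference from ND was still called for *Adrb3* (-2.02) and not for *Adrb1* (-0.69, adjusted p = 0.13), *Npr1* (0.019) or *Npr2* (-0.17), while *Npr3* was called higher (1.14). Relative to endothelial markers the values were -0.81 for *Adrb1*, still called, -0.10 for *Npr1*, -0.29 for *Npr2* and 1.02 for *Npr3*, and relative to mural markers -0.90, -0.19, -0.38 and 0.93, of which *Npr3* was called. For CLE and LU against HFD, *Adrb3* stayed called relative to each of the 3 lists, at log2 differences from 0.94 to 1.43, and *Npr1* and *Npr2* relative to none. *Npr3* then lay below HFD in each case, from -0.67 to -0.19, and was called lower in 1 of them, LU relative to endothelial markers (-0.67, adjusted p = 0.025). The adipocyte list itself had moved by -0.71 between ND and HFD, by 0.59 with CLE and by 0.48 with LU. Each scaling shifts every gene of a comparison by the same amount. Relative to the adipocyte markers, 7534 of the 12775 genes tested were called higher and 164 lower in HFD against ND. In CLE against HFD 82 were called higher and 6351 lower, and in LU against HFD 75 and 3969. All genes were not counted in this way for the endothelial and mural lists. The part of cell composition in the changes of *Npr1* and *Npr2* was not tested.

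**Figure D5:**
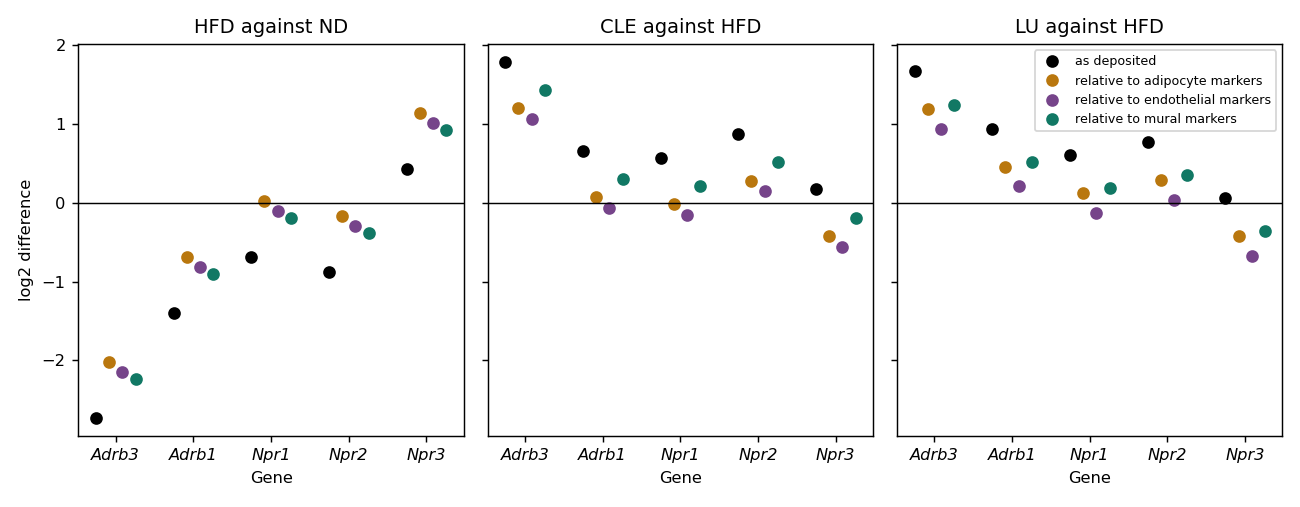
Log2 differences of the 5 tested receptor genes (vertical axis) in the 3 comparisons with the HFD group, as deposited and relative to the mean level of 3 marker lists in the same library. Each scaling moves all genes of a panel by the same amount. *Adrb3* remains far from 0 under every scaling, *Adrb1*, *Npr1* and *Npr2* move towards 0, and *Npr3* moves up in HFD against ND. *Npr1* crosses 0 in some cases, and *Adrb1* in CLE against HFD relative to endothelial markers (-0.066).

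The ligands of these receptors were hardly measured in the tissue. *Nppa* and *Nppb*, which encode the cardiac peptides, and *Ostn*, whose product binds the clearance receptor, were listed at 0 in all 12 libraries, and *Nppc* (C-type peptide) reached at most 0.0965 FPKM. *Corin*, a protease that processes the cardiac precursor, reached 0.248 FPKM. The 3 genes that passed the filter, *Furin*, *Ece1* and *Mme* (neprilysin, which degrades the peptides), had log2 differences of 0.07, 0.77 and 0.25 between HFD and ND, and 0 of the 3 were called there or with CLE or LU. For *Ece1* the adjusted p was 0.0502, and 1 HFD mouse reached 146 FPKM. Of 10 other genes of cyclic GMP signaling, which include other guanylyl cyclases beside kinases, phosphodiesterases and a kinase substrate, 8 were tested and 0 were called in any of the 3 comparisons with HFD, with a median log2 fold change of -0.11 in HFD against ND (median of all genes tested -0.02).

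Catecholamine handling was measured by 4 of 10 genes, since *Th*, *Dbh*, *Pnmt*, *Ddc*, *Slc6a2* and *Slc18a2* did not pass the filter. *Maoa*, a monoamine oxidase, rose in the HFD group by 1.45 and fell with CLE and LU by 0.95 and 0.66 on the log2 scale. *Slc22a3*, an extraneuronal monoamine transporter, fell with the HFD by 1.12 (adjusted p = 9.8e-06), from 58.0 to 69.2 FPKM to 27.2 to 28.7 FPKM, and rose with CLE by 0.90 and with LU by 0.78. *Maob* fell with the HFD by 0.86 and was not called with either supplement.

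Genes of the adenylyl cyclases, which act downstream of the adrenoceptors, differed in both directions in this whole tissue. In which cells they changed was not tested. Of 11 tested genes for G proteins and adenylyl cyclases, 3 were called higher and 1 lower in the HFD group, 2 higher and 1 lower with CLE, and 1 higher and 1 lower with LU. Over all genes tested, 14.9% were called higher and 10.8% lower in the HFD group. With CLE these shares were 6.33% and 10.1%, and with LU 4.81% and 7.64%. The same shares apply to the lists that follow. *Adcy7* rose with the HFD by 2.85 and fell with CLE and LU by 1.99 and 1.66, *Adcy4* fell with the HFD by 1.05 and rose with CLE and LU by 1.17 and 1.01, and *Adcy3* rose with the HFD by 0.79 and was not called with either supplement. Of the 10 genes for protein kinase A, its anchors and inhibitors, 1 was called higher with the HFD and 0 lower, namely *Pkia*, an inhibitor of the kinase, by 1.20. *Pkia* fell with CLE by 0.68 and *Akap12*, an anchoring protein, rose with CLE by 0.64, and 0 of the 10 were called with LU.

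Phosphodiesterases of cyclic AMP had 2 genes called higher and 3 lower of 12 tested in the HFD group, 3 higher with CLE and 2 higher with LU. *Pde3b*, the insulin-regulated phosphodiesterase of fat cells, fell with the HFD by 1.30 (adjusted p = 0.00011) and rose with CLE by 0.90 and with LU by 0.67. *Pde1a* fell with the HFD by 0.92 and rose with CLE by 0.83, and *Pde7a* rose with the HFD by 0.92. Among 7 genes of receptor desensitization, 2 rose in the HFD group, *Arrb2* (beta-arrestin 2) by 1.07 and *Grk3* by 0.66. With CLE 3 of the 7 fell, *Rgs2* by 1.81, *Arrb2* by 0.80 and *Grk3* by 0.69, and with LU *Rgs2* fell by 1.24.

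Of 7 lipolysis genes, 4 fell with the HFD, 5 rose with CLE and 1 rose with LU. Over all genes tested, 10.8% were called lower with the HFD, 6.33% higher with CLE and 4.81% higher with LU. The median log2 fold changes of the 7 were -0.62, 0.63 and 0.49, against -0.019, 0.0052 and 0.032 over all genes tested. *Pnpla2* (adipose triglyceride lipase), *Plin1* (perilipin) and *G0s2* (an inhibitor of that lipase) fell with the HFD by 0.92, 0.83 and 0.73. The gene that rose with LU was *Aqp7*, a glycerol channel, by 0.61, and it rose with CLE by 0.63. Among thermogenic targets, *Cidea* fell with the HFD by 1.33 and had differences of 0.16 and 0.11 with CLE and LU, neither called. *Ucp1* and *Dio2* reached at most 0.460 and 0.235 FPKM and were not tested.

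Of the other Gs- and Gi-coupled receptors of fat cells, 4 of 6 tested genes fell in the HFD group and 1 rose, with CLE 3 rose, and with LU the 3 that rose were *Gcgr*, *Gipr* and *Ptger3*. *Gcgr* (glucagon receptor) had log2 fold changes of -1.03, 1.20 and 1.14 in HFD against ND, CLE against HFD and LU against HFD, *Gipr* (receptor of the incretin GIP) -0.81, 1.05 and 1.09, and *Ptger3* (prostaglandin E receptor, Gi-coupled) -0.97, 0.69 and 0.73. *Gcgr* was low, at 0.247 to 0.728 FPKM in the HFD mice and 1.51 to 2.36 FPKM in the ND mice. *Tshr* (thyrotropin receptor) fell with the HFD by 0.63 and *Adora1* (adenosine A1 receptor) rose by 0.63, and neither was called with a supplement. *Mc2r* (corticotropin receptor) differed by -0.11, and *Npy1r* and *Mc5r* did not pass the filter.

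The genes whose pattern over the 12 libraries was most like that of each receptor gene were named by Pearson's r of log2(FPKM + 1), a description in which the libraries share the group differences. For *Adrb3* these were *Hoxc6* (0.980), *Gm454* (0.980) and *Fgf11* (0.977), and for *Adrb1* they included *Atp5g2* (0.932) and *Ociad1* (0.930). For *Npr1* they were *Tspan2* (0.973), *Cldn15* (0.969) and *Irf1* (0.968). *Npr2* was most like *Ramp2*, *Hspa12b* and *Id1*, each with r of 0.974, of which *Ramp2* encodes a receptor partner found in endothelium and *Id1* a target of bone morphogenetic protein signaling. *Npr3* was most like *Adamts5* (0.959), *Anxa6* (0.944) and *Synpo2* (0.938). *Adamts5* had means of 49.3 FPKM with ND, 79.6 FPKM with HFD, 92.5 FPKM with CLE and 81.5 FPKM with LU, the same order of groups as *Npr3*. Between the receptor genes, r was 0.80 for *Adrb1* with *Adrb3* and for *Adrb3* with *Npr2*, and from -0.46 to -0.19 for *Npr3* with the others.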

How the data were processed

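The authors isolated total RNA from whole eWAT with TRIzol, prepared TruSeq libraries and sequenced paired reads. The submitters' processing notes name CASAVA 1.8.2, Bowtie2 2.2.3, TopHat2 2.0.12 and Cufflinks 2.2.1. The build is not given in the sources used here, nor is the strand setting, so reads of antisense genes that overlap *Adrb3*, *Npr1*, *Npr2* and *Npr3* cannot be told apart from theirs. The authors deposited FPKM for 152210 transcripts, known or assembled. Columns marking the authors' own differential calls were not used, and neither were 3 FPKM columns that match no sample. The column headed MD4 was taken as ND mouse 4 by inference.

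Known transcripts and assembled ones sharing a junction chain or junctions with them were summed by their GENCODE M21 gene (GRCm38), in which 87.6% of known transcripts had the same start and end. The tests used limma 3.58.1 (run in R 4.3.3) and log2(FPKM + 1) values of the genes that reached 1 FPKM in 3 or more libraries, with 12 libraries in 1 fit, without trend or covariate, with Benjamini-Hochberg adjustment within each of 6 comparisons. The Npr1 to Npr3 ratio was compared by exact permutation. Depth is unknown, because at best 29.0% to 51% of low FPKM in a library lay within 0.1 of whole reads. The code was tested on simulated data. Tables and plots were made with Python 3.11.15, pandas 2.3.3, numpy 2.4.6 and matplotlib 3.10.9, and windows came from RefSeq (5 of 6 genes matched). The limma p-values set a difference in group means against the spread between mice within groups. That spread was pooled over all groups and drawn towards that of the other genes (empirical Bayes).

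All 6 receptor genes were named. For receptor and ligand lists every gene was named, and for other lists the 3 called genes with the largest change between HFD and ND, plus the 3 genes most like each receptor gene. Of the genes that this rule names, 2 are not reported here. The receptor genes, lists and tests were chosen with earlier results of these data known. *Xcl1*, *Rgs2*, *Akap12*, *Aqp7*, *Th*, *Dbh* and *Lcn5* were named after their values were seen, as were the libraries singled out.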

Additional observations from a re-analysis of the deposited data

How the results depend on the processing

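Over 31 alternatives, the 3 calls of *Adrb3* in comparisons with HFD held in all. In the 924 recomputed values of single receptor genes, 827 kept direction and side of the threshold, 44 lost a call, 18 gained one and 35 changed sign. The cause was not tested. Counts of called genes moved by over 1.5 times with the adjusted p alone (6445 for HFD against ND, 4298 for CLE against HFD, 3428 for LU against HFD, 661 for CLE against ND, 1635 for LU against ND) and relative to the adipocyte markers (7698, 6433, 4044 and, for LU against ND, 1622), which that scaling itself brings about by shifting all genes. For CLE against ND they were 227 with no filter, 0 with only the groups compared, 183 without the letter R, 224 without class j and 207 with the highest transcript, and 124 to 498 leaving out 1 library. For CLE against LU the count was 0 in place of 1 with a pseudocount of 0.1, no filter, a mean of 5 FPKM, median ratios, quantiles, only the groups compared, a trend, the letter R, no class j or the highest transcript, and 0 to 1 leaving out 1 library.

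Receptor genes called numbered 2 relative to adipocyte or mural markers for HFD against ND, and 1 for CLE against HFD (all 3 marker lists) and LU against HFD (adipocyte and mural). For CLE against ND they numbered 0 with quantiles, mural markers, only the groups compared or array weights, and 0 to 1 leaving out 1 library. For LU against ND they numbered 0 with no filter, mural markers, only the groups compared or no class j, 2 relative to adipocyte markers or with the adjusted p alone, and 0 to 2 leaving out 1 library. The endothelial and mural scalings, and summing by the gene symbol column, were added after seeing the data.

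Signs changed as follows. Relative to adipocyte markers, *Npr1* was 0.019 (HFD against ND), -0.022 (CLE against HFD) and 0.14 (LU against ND), *Npr2* -0.011 (CLE against LU), 0.11 (CLE against ND) and 0.12 (LU against ND), and *Npr3* -0.42 (CLE and LU against HFD) and -0.0025 (CLE against LU). Relative to endothelial markers, *Adrb1* was -0.066, *Npr1* -0.16 and *Npr3* -0.56 (CLE against HFD), and *Npr1* -0.13 and *Npr3* -0.67 (LU against HFD). Relative to mural markers, *Npr3* was -0.19 and -0.36 (CLE and LU against HFD), *Npr1* 0.029 (CLE against LU) and 0.018 (CLE against ND), and *Npr2* 0.13 (CLE against ND). *Npr1* in CLE against LU was 0.00033 with median ratios and 0.0029 with quantiles. *Npr2* in CLE against ND was 0.018 at equal totals, 0.00035 with the letter R, 0.019 without class j and 0.065 with the highest transcript. Leaving out 1 library, CLE against LU ranged from -0.65 to 0.36 for *Adrb1*, -0.15 to 0.42 for *Adrb3* and -0.13 to 0.11 for *Npr1* (0.028 without LU mouse 2), reading -0.079 for *Adrb3* without CLE mouse 2, CLE against ND from -0.26 to 0.025 for *Npr1* and -0.071 to 0.074 for *Npr2* (0.027 and 0.026 without ND mice 2 and 4), and LU against ND from -0.22 to 0.026 for *Npr1*.

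The *Npr1* to *Npr3* log2 ratio without the letter R differed by -1.49 (HFD against ND), -1.18 (CLE against ND) and -0.97 (LU against ND). In these values ND mouse 2 was the only ND library. Leaving out 1 library, CLE against LU ranged from -0.26 to 0.078. With mouse number as a replicate block, 4, 2 and 3 receptor genes were called in the comparisons with HFD (*Npr1* in LU against HFD 0.62), 0 between CLE and LU, and 1 with CLE and 1 with LU against ND, so no call changed. The numbers do not pair the libraries, since deviations of same-numbered libraries had r of -0.099 to 0.19, and HFD shares no number. The Adrb3 to Adra2a ratio was not formed, because the summed *Adra2a* was near 0 in 3 libraries, which limits what can be said of it. In those libraries an overlapping transcript that was not summed had 0.156 to 0.367 FPKM.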
